A study of Mus musculus with 21 samples.

Results

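Microglia are the resident macrophages of the brain. In the uninjured brain they carry a characteristic set of surface receptors, among them the ADP receptor P2RY12, whose expression depends on TGF-beta signalling. Tissue damage is sensed through purinergic and toll-like receptors, and responding microglia release chemokines and cytokines, take up debris and can divide. The comparison described here sets microglia of wild-type C57BL/6 mice 1 d after controlled cortical impact (CCI), an open-skull model of traumatic brain injury, against microglia of sham-operated wild-type mice. It comprised 6 of the 21 RNA-seq libraries of the study, 3 per group, and all 23815 genes with at least 5 counts over the 21 libraries, of 45706 in the table.

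Mice were male and 17 to 24 weeks old. Sham controls had the surgery without the impact, and the time between their surgery and tissue collection was not given in the sources used here. Each library was made from live CD45lowCD11b+ cells sorted from a tissue block spanning the lesion, with 2 brains pooled at random, so that a library is a mean over animals. The cells of the perilesional block also include microglia at various distances from the impact, and in bulk libraries fewer cells of a kind and less RNA per cell cannot be told apart. Values are expected counts scaled to library size (CPM) with TMM factors, which correct for differences in library composition. Gene length was divided out within libraries by the authors' quantification.

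Total counts ranged from 23594176 to 36729567 per library at 1 d and from 18896957 to 28550018 in sham controls, and 3 counts corresponded to 0.0754 to 0.117 CPM, a floor that covers counting error only. Because gene length was divided out, a count stands for different numbers of reads in short and long genes, here and in the shares below. Some genes named below had a sham library at or below this floor, among them Acod1, P2ry2, Nr4a3, Ptgs2 and Ch25h. The size of their fold changes is uncertain. Ribosomal RNA, cytosolic and mitochondrial, took 50.6% to 58.5% of the counts at 1 d and 43.4% to 47.8% in sham controls. Other counts numbered 11654317 to 15461271 per library at 1 d and 9856473 to 15698693 in sham controls. Library composition differed between the groups. Mitochondrial ribosomal RNA took 32.4% ± 3.22 of the counts at 1 d and 19.97% ± 1.84 in sham controls (SD, n = 3 each), and TMM factors were 0.741 to 1.11 at 1 d and 1.39 to 1.55 in sham controls. Scaling by library totals alone lowered the fold changes by a median of 0.70 on the log2 scale, so that all changes below are relative to the bulk of genes. Library 1 of the 1 d group stood apart from libraries 2 and 3 in its TMM factor, and sham library 1 stood apart in its immediate early genes, as described below.

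Injury was accompanied by broad changes in both directions. Of all genes tested, 2548 were higher at 1 d at an adjusted p under 0.05 (edgeR quasi-likelihood test, Benjamini-Hochberg adjustment), or 10.7%, and 1422 were lower, or 5.97%. These are the genes called "passed" below, and a gene that did not pass is not thereby shown to be unchanged. Every count of list members below is to be read beside these shares of 10.7% higher and 5.97% lower. With an absolute log2 fold change above 1.5 in addition, the higher genes made up 4.91% and the lower genes 2.43% of those tested. The number of lower genes depended on single libraries. It was 807 without 1 d library 2 and 731 without 1 d library 3, and with the fold bar it was 885, 311 and 273 without 1 d libraries 1, 2 and 3. With library totals, 976 genes were higher and 4072 lower. Lists described below with more higher than lower members had more lower than higher members under that scaling for innate sensors, cytokine and chemokine receptors, NF-kB, AP-1, MAPK feedback, inflammasome, prostaglandin, complement, MHC class I, adhesion and cell death genes, and as many of each for interferon-stimulated genes. The plot of fold change against level shows the spread over all genes.

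**Figure D1:**
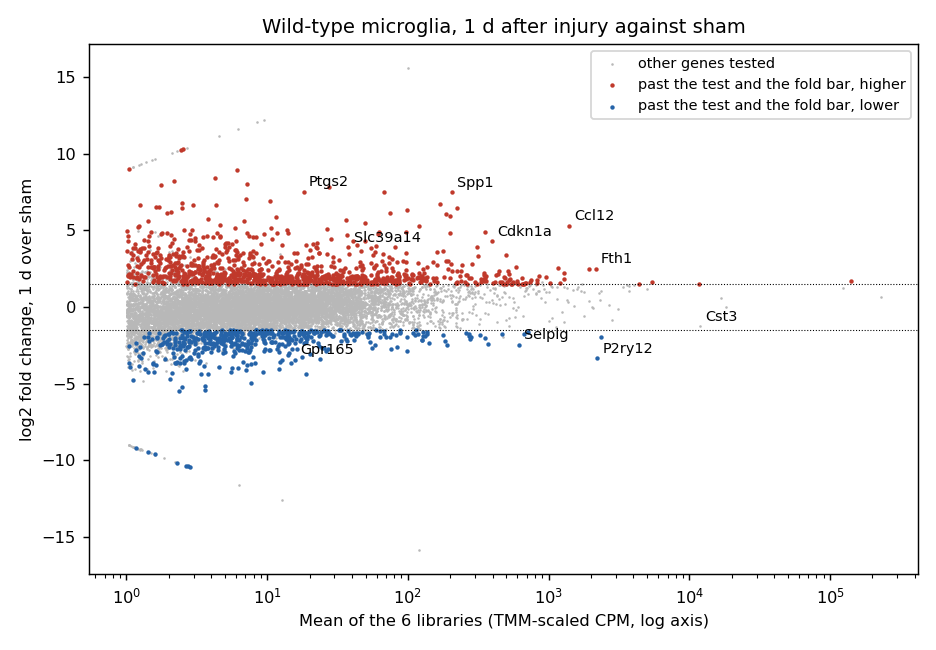
Log2 fold change at 1 d over sham (y axis) against the mean of the 6 libraries in TMM-scaled CPM (x axis, log scale), for genes with a mean of at least 1 CPM. Red and blue points passed the test with an absolute log2 fold change above 1.5 (dotted lines); Ptgs2 and Spp1 lie near the top and P2ry12 combines a high level with a log2 fold change of -3.34.

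The higher genes with the smallest adjusted p had separate groups by the rule that named them, and adjusted p from 1.11e-08 to 1.01e-07 (edgeR). Levels of Tspo were 69.1, 77.4 and 102 CPM at 1 d and 11.8, 11.9 and 12.6 CPM in sham controls (log2 fold change 2.77 ± 0.20 (SE), adjusted p = 8.35e-08, edgeR). At 1 d, Tpm4 was measured at 118, 199.7 and 217 CPM, and in sham controls at 13.9, 14.2 and 18.1 CPM (log2 fold change 3.53). Ell2 had 52.1, 104 and 126 CPM in the 1 d libraries and 4.08, 4.52 and 5.51 CPM in the sham libraries (log2 fold change 4.32). Tspo encodes a mitochondrial outer membrane protein used as an imaging target for reactive glia, Tpm4 a tropomyosin and Ell2 an elongation factor of RNA polymerase II. Levels of Nap1l1 were 107, 143 and 147 CPM at 1 d and 20.8, 21.8 and 26.3 CPM in sham controls (log2 fold change 2.53). At 1 d, Eef1g was measured at 327, 458 and 488 CPM, and in sham controls at 59.2, 63.1 and 68.1 CPM (log2 fold change 2.74). Gm49339 had 222, 377 and 585 CPM in the 1 d libraries and 3.82, 6.04 and 9.15 CPM in the sham libraries (log2 fold change 5.96). Nap1l1 encodes a histone chaperone and Eef1g a subunit of a translation elongation factor. Levels of Evi2b were 153, 229 and 240.0 CPM at 1 d and 23, 29.6 and 31.2 CPM in sham controls (log2 fold change 2.89). At 1 d, Slc39a14 was measured at 69.1, 71.9 and 70.5 CPM, and in sham controls at 3.41, 4.78 and 5.73 CPM (log2 fold change 3.92). Evi2b lies within the span of Nf1 on the opposite strand, and Slc39a14 encodes a zinc and iron importer whose 1 d libraries agreed closely.

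The lower genes followed the same rule, with adjusted p from 1.84e-07 to 3.27e-06. Glul had 111, 130.4 and 124 CPM in the 1 d libraries and 513, 281 and 384 CPM in the sham libraries (log2 fold change -1.69). Levels of Serinc3 were 420.3, 350.5 and 270.0 CPM at 1 d and 973, 1019.7 and 1271 CPM in sham controls (log2 fold change -1.65 ± 0.17 (SE), adjusted p = 2.07e-06, edgeR). At 1 d, Irf2bp2 was measured at 24.1, 18.5 and 18.6 CPM, and in sham controls at 64.2, 66.6 and 73.8 CPM (log2 fold change -1.74). Glul encodes glutamine synthetase, Serinc3 a membrane protein and Irf2bp2 a transcriptional corepressor, which overlaps a more abundant antisense gene. Sft2d2 had 17, 12.2 and 11.2 CPM in the 1 d libraries and 47.9, 57.7 and 70.3 CPM in the sham libraries (log2 fold change -2.12). Levels of Prkab1 were 14.2, 12.8 and 11.2 CPM at 1 d and 40.5, 49 and 39.7 CPM in sham controls (log2 fold change -1.75). At 1 d, Slc44a2 was measured at 10.2, 8.36 and 6.67 CPM, and in sham controls at 31, 28.6 and 32.3 CPM (log2 fold change -1.86). Prkab1 encodes a regulatory subunit of the AMP-activated kinase and Slc44a2 a choline transporter-like protein. 1700017B05Rik had 23.9, 18.7 and 20.1 CPM in the 1 d libraries and 64.2, 66.2 and 71.3 CPM in the sham libraries (log2 fold change -1.69). Levels of Vsir were 67.8, 53.3 and 49.6 CPM at 1 d and 183, 187 and 258 CPM in sham controls (log2 fold change -1.88). At 1 d, Cd164 was measured at 141, 112 and 96.5 CPM, and in sham controls at 418, 414 and 446 CPM (log2 fold change -1.87). Vsir encodes the checkpoint receptor VISTA and Cd164 a sialomucin. The next genes had large decreases. Upk1b had 4.16, 0.543 and 0.586 CPM in the 1 d libraries and 43.7, 37.1 and 28 CPM in the sham libraries (log2 fold change -4.36 ± 0.79 (SE), adjusted p = 0.000682, edgeR). Levels of Sult1a1 were 3.66, 1.88 and 1.01 CPM at 1 d and 28.6, 21.5 and 31.6 CPM in sham controls (log2 fold change -3.64). At 1 d, Gm3488 was measured at 3.09, 1.01 and 1.52 CPM, and in sham controls at 27.4, 30.1 and 10.7 CPM (log2 fold change -3.60). Upk1b encodes a tetraspanin and Sult1a1 a sulfotransferase, and the rule that named them took only genes with separate groups.

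Genes of homeostatic microglia were lower as a group. Of 40 such genes, 29 passed lower and 0 higher, with a median log2 fold change of -1.30 against 0 over all genes. P2ry12 had 659, 357 and 169 CPM in the 1 d libraries and 4021, 3954 and 4021 CPM in the sham libraries (log2 fold change -3.34 ± 0.46 (SE), adjusted p = 3.31e-05, edgeR). The 1 d libraries were all far below the sham libraries and differed among themselves, with library 1 highest. Levels of Tmem119 were 194, 151 and 93.7 CPM at 1 d and 445, 443 and 639 CPM in sham controls (log2 fold change -1.80 ± 0.28 (SE), adjusted p = 0.000117, edgeR). At 1 d, Siglech was measured at 206, 93.2 and 52.6 CPM, and in sham controls at 709, 588 and 569.9 CPM (log2 fold change -2.41 ± 0.38 (SE), adjusted p = 0.000132, edgeR). Siglech, a sialic acid-binding receptor, thus had the same order of 1 d libraries as P2ry12 and Tmem119, a microglial membrane protein. Gpr165 had 2.98, 2.86 and 2.03 CPM in the 1 d libraries and 35.2, 25.8 and 25.1 CPM in the sham libraries (log2 fold change -3.45 ± 0.37 (SE), adjusted p = 2.44e-06, edgeR). Levels of Selplg were 287, 170.1 and 108 CPM at 1 d and 1023, 919.6 and 1185 CPM in sham controls (log2 fold change -2.47 ± 0.29 (SE), adjusted p = 7.43e-06, edgeR). At 1 d, Tgfbr1 was measured at 136, 109.5 and 73.3 CPM, and in sham controls at 432, 432 and 468 CPM (log2 fold change -2.06 ± 0.23 (SE), adjusted p = 3.61e-06, edgeR). Gpr165 is an orphan receptor, Selplg encodes the selectin ligand PSGL-1 and Tgfbr1 encodes the type I TGF-beta receptor. Cst3, the protease inhibitor cystatin C, was among the most abundant of the list, at a mean of 6966 CPM at 1 d and 16802 CPM in sham controls. The fractalkine receptor Cx3cr1 did not pass. Its levels were 422, 511 and 417 CPM at 1 d and 405, 781 and 903 CPM in sham controls, and the groups overlapped through sham library 1. Trem2, Tyrobp, Fcrls and Olfml3 did not pass either, with log2 fold changes of -0.80, 0.30, 0.60 and 0.06.

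Both antigens used in the sort were measured as RNA. Ptprc (CD45) had 177, 169 and 167 CPM at 1 d and 124, 122 and 121 CPM in sham controls, and Itgam (CD11b) ranged from 379 to 433 CPM at 1 d and from 229 to 327 CPM in sham controls. Both passed higher with log2 fold changes of 0.48 and 0.59, and with library totals both were lower and did not pass (-0.25 and -0.16). Among 22 transcription factors of microglia and macrophages, 4 passed higher and 7 lower. Sall1 had 89.4, 61.1 and 39.9 CPM in the 1 d libraries and 205, 214 and 213 CPM in the sham libraries (log2 fold change -1.73 ± 0.30 (SE), adjusted p = 0.00036, edgeR). Levels of Maf were 34.4, 32.3 and 36 CPM at 1 d and 105, 118 and 133 CPM in sham controls (log2 fold change -1.79 ± 0.24 (SE), adjusted p = 2.05e-05, edgeR). Sall1, a factor restricted to microglia among brain macrophages, and Maf were each lower in every 1 d library. At 1 d, Bhlhe40 was measured at 5.57, 2.61 and 2.69 CPM, and in sham controls at 0.255, 0.266 and 0.578 CPM (log2 fold change 3.25 ± 0.39 (SE), adjusted p = 7e-06, edgeR). Spi1, which encodes the myeloid factor PU.1, was at 105, 129.6 and 122 CPM and 114, 126 and 137 CPM and did not pass. The count of lower factors was 4 without sham library 3 or without 1 d library 2 or 3, and with library totals 2 passed higher and 15 lower.

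**Figure D2:**
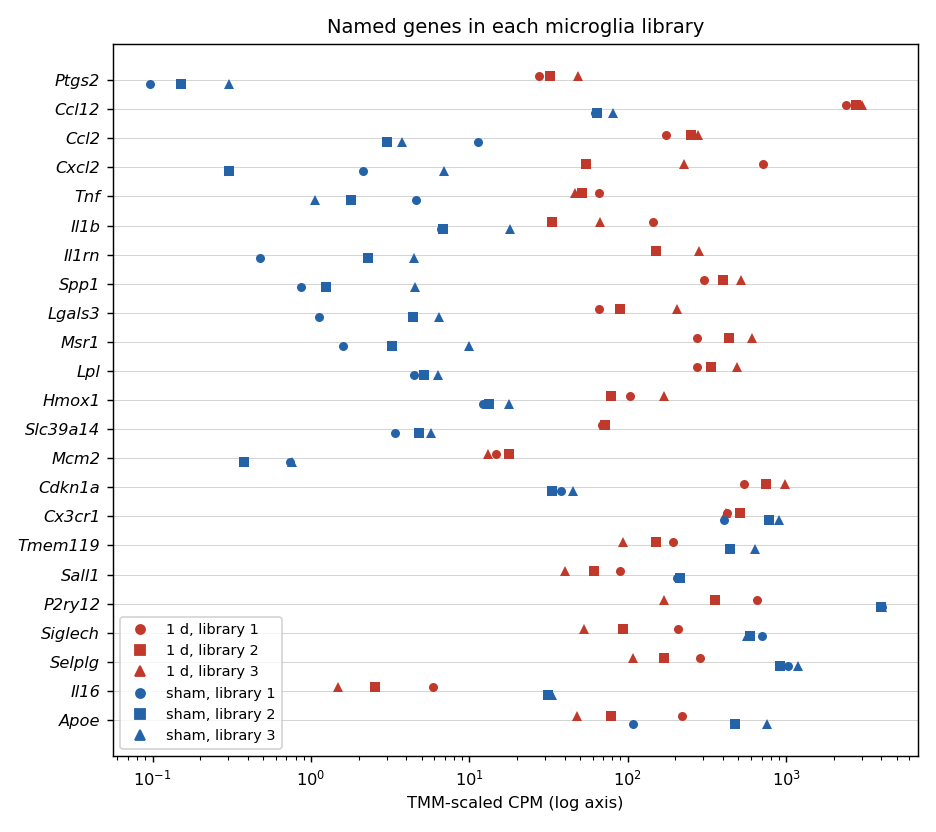
TMM-scaled CPM (x axis, log scale) of 23 named genes in each of the 6 libraries; red is 1 d, blue is sham, and circle, square and triangle are libraries 1, 2 and 3. The groups are separate for all genes shown except Cx3cr1 and Apoe, where sham library 1 falls within or near the 1 d range. Some of the genes shown were named by a rule that takes only genes with separate groups.

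Chemokine ligands were the list with the highest median. Of 24 ligands, 14 passed higher and 0 lower, with a median log2 fold change of 3.35 (3.61 with genes at 0 in sham set to the floor). Ccl12 had 2388, 2749.6 and 3005 CPM in the 1 d libraries and 62, 63.9 and 80.4 CPM in the sham libraries (log2 fold change 5.30 ± 0.40 (SE), adjusted p = 8.35e-08, edgeR). Levels of Ccl3 were 609, 621 and 824 CPM at 1 d and 21.9, 22.3 and 26 CPM in sham controls (log2 fold change 4.87 ± 0.46 (SE), adjusted p = 6.03e-07, edgeR). At 1 d, Ccl2 was measured at 175, 250.2 and 276 CPM, and in sham controls at 11.4, 3 and 3.77 CPM (log2 fold change 5.27 ± 0.48 (SE), adjusted p = 5.5e-07, edgeR). These genes encode ligands that draw monocytes and other leukocytes. In each, the lowest 1 d library exceeded the highest sham library more than 10-fold. Cxcl2 had 716, 54.7 and 228 CPM in the 1 d libraries and 2.14, 0.304 and 6.96 CPM in the sham libraries (log2 fold change 6.70 ± 1.08 (SE), adjusted p = 0.000164, edgeR). Cxcl2, a neutrophil attractant, varied far more among the 1 d libraries than the CC chemokines, with library 1 highest and library 2 lowest. Levels of Cxcl10 were 58.3, 67.7 and 88.6 CPM at 1 d and 3.22, 1.59 and 3.29 CPM in sham controls (log2 fold change 4.72 ± 0.75 (SE), adjusted p = 0.000147, edgeR). Ccl12 was higher in these microglia than in the infiltrating myeloid cells of the same injury, which had a mean of 376 CPM, while Ccl2 and Cxcl2 had means of 796 and 2955 CPM in those cells.

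Promoters of 2 CXC ligands are shown because each holds a match to GGANTTTCC, a core of the NF-kB motif, on either strand (capitals). Sequences run from 250 bases before to 50 bases after the start, from RefSeq on GRCm38.p6. Cxcl2 is at chr5:90903649-90903948, plus strand, and Cxcl10 at chr5:92348840-92349139, minus strand.
Cxcl2: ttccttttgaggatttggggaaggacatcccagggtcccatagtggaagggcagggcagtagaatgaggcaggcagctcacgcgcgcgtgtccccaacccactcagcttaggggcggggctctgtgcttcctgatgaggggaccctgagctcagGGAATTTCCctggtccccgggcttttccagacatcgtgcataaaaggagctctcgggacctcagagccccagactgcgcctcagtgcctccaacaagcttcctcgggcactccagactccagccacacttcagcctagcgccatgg
Cxcl10: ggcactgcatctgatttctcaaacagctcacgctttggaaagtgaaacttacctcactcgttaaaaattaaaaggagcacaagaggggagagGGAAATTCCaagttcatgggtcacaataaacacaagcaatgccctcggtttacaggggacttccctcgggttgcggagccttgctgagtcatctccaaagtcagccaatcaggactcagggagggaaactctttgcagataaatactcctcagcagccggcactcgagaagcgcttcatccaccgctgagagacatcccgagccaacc
Promoters were matched by symbol for 15 of the 24 ligands, and 4 held the motif (26.7%). It was in 1.25% of all 32851 promoters, 1.37% of those of the genes tested and 2.24% of those of genes higher past the fold bar. In other lists it was in 4.48% (ribosomal proteins), 2.78% (cell cycle), 2.63% (homeostatic) and 0% (oxidative phosphorylation) of promoters. The window of Ptgs2 held 0 matches. A match is a description of letters and shows no binding.

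Of 31 cytokines and growth factors, 11 passed higher and 2 lower, the lower count being near the share over all genes. At 1 d, Il1rn was measured at 151, 152 and 282 CPM, and in sham controls at 0.478, 2.28 and 4.45 CPM (log2 fold change 6.33 ± 0.61 (SE), adjusted p = 8.51e-07, edgeR). Il1rn encodes the interleukin-1 receptor antagonist. Tnf had 66.2, 51.1 and 46.2 CPM in the 1 d libraries and 4.62, 1.78 and 1.06 CPM in the sham libraries (log2 fold change 4.46 ± 0.52 (SE), adjusted p = 5.81e-06, edgeR). Levels of Il1b were 144, 33.2 and 66.5 CPM at 1 d and 6.6, 6.8 and 18.2 CPM in sham controls (log2 fold change 2.94 ± 0.58 (SE), adjusted p = 0.00107, edgeR). Il1b was highest in 1 d library 1, while Tnf was similar in the 3 libraries. At 1 d, Il16 was measured at 5.88, 2.53 and 1.48 CPM, and in sham controls at 31.7, 31.4 and 33.3 CPM (log2 fold change -3.28 ± 0.41 (SE), adjusted p = 1.35e-05, edgeR). Among 35 receptors for cytokines and chemokines, 10 passed higher and 6 lower. Il4ra had 56.6, 79.5 and 99 CPM in the 1 d libraries and 17.1, 21.6 and 31 CPM in the sham libraries (log2 fold change 1.75 ± 0.23 (SE), adjusted p = 1.91e-05, edgeR). Levels of Il6ra were 47.8, 40.4 and 38.2 CPM at 1 d and 120.5, 136 and 141 CPM in sham controls (log2 fold change -1.65 ± 0.18 (SE), adjusted p = 3.81e-06, edgeR). At 1 d, Il10ra was measured at 30.4, 19.2 and 18.3 CPM, and in sham controls at 84.7, 70.7 and 87.3 CPM (log2 fold change -1.83 ± 0.24 (SE), adjusted p = 2.09e-05, edgeR). Il4ra was higher in every 1 d library, and the interleukin-6 and interleukin-10 receptor chains were lower in every 1 d library. Igf1 did not pass, at 3.17, 4.38 and 4.25 CPM and 1.24, 9.72 and 14.4 CPM.

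Innate sensors moved in both directions, with 7 of 28 higher and 6 lower. Cd14 had 391, 1028 and 1291 CPM in the 1 d libraries and 78.4, 75 and 107 CPM in the sham libraries (log2 fold change 3.38 ± 0.47 (SE), adjusted p = 3.52e-05, edgeR). Cd14, the lipopolysaccharide co-receptor, was lowest in library 1 of the 1 d group, where it was still above every sham library. Levels of Tlr2 were 68.7, 96.2 and 89.5 CPM at 1 d and 23.7, 30.5 and 41.1 CPM in sham controls (log2 fold change 1.42 ± 0.26 (SE), adjusted p = 0.000684, edgeR). At 1 d, Tlr9 was measured at 28.2, 20.4 and 16.4 CPM, and in sham controls at 70.1, 85.8 and 93.9 CPM (log2 fold change -1.94 ± 0.34 (SE), adjusted p = 0.000406, edgeR). Tlr3 had 24.2, 25.8 and 20.8 CPM in the 1 d libraries and 60.2, 58.4 and 71.2 CPM in the sham libraries (log2 fold change -1.42 ± 0.28 (SE), adjusted p = 0.00117, edgeR). With library totals the fold change of Tlr2 no longer passed (0.66), and 3 of the sensors passed higher and 12 lower. Purinergic genes also split, with 4 of 16 higher and 4 lower. Levels of P2ry13 were 281, 218 and 128 CPM at 1 d and 666, 759.8 and 734 CPM in sham controls (log2 fold change -1.78 ± 0.26 (SE), adjusted p = 4.87e-05, edgeR). At 1 d, Entpd1 was measured at 60.3, 47.6 and 34.2 CPM, and in sham controls at 184, 210.1 and 318 CPM (log2 fold change -2.33 ± 0.30 (SE), adjusted p = 1.79e-05, edgeR). Entpd1 encodes CD39, which degrades extracellular ATP and ADP. P2ry2 had 2.06, 3.8 and 4.53 CPM in the 1 d libraries and 0.0637, 0.0759 and 0.201 CPM in the sham libraries (log2 fold change 4.83 ± 0.64 (SE), adjusted p = 2.1e-05, edgeR). The higher count was 2 without sham library 1 or 2, or without 1 d library 3.

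Of 23 AP-1 and immediate early genes, 9 passed higher and 2 lower, the lower count being near the share over all genes. Levels of Ier3 were 45.2, 40.2 and 63.2 CPM at 1 d and 13.8, 6.3 and 2.77 CPM in sham controls (log2 fold change 2.70 ± 0.49 (SE), adjusted p = 0.000543, edgeR). At 1 d, Nr4a3 was measured at 12.2, 6.48 and 9.76 CPM, and in sham controls at 0.0637, 1.03 and 0.754 CPM (log2 fold change 3.95 ± 0.69 (SE), adjusted p = 0.00033, edgeR). Fos did not pass, with 32, 39.8 and 46.5 CPM at 1 d and 98.5, 4.71 and 8.95 CPM in sham controls, and Jun had 54.3, 32.3 and 37.7 and 181, 41.7 and 45.1 CPM. For Fos, Jun, Btg2 and Socs3, sham library 1 was the highest of the sham libraries. Btg2 had 125, 31.4 and 38.8 CPM in sham controls and 24.2, 14.1 and 21.6 CPM at 1 d, and its lower call was lost without sham library 1 or without 1 d library 2 or 3. The part of this library in these results was otherwise not tested. Among 21 NF-kB subunits and feedback genes, 5 passed higher and 1 lower, and the higher count was 2 or 3 without 1 d library 1 or 3 or without any single sham library. The lower count was near the share over all genes, and it was 0 without sham library 3 or 1 d library 2 or 3. Bcl3 had 26.2, 21.1 and 24.2 CPM in the 1 d libraries and 1.72, 1.75 and 5.56 CPM in the sham libraries (log2 fold change 2.97 ± 0.39 (SE), adjusted p = 1.89e-05, edgeR). Nfkbia was at 17.1, 14 and 20.4 CPM and 21.5, 7.48 and 14.8 CPM, and the groups overlapped. Of 22 MAPK feedback genes, 4 passed higher and 3 lower. Levels of Rgs2 were 65.9, 40.2 and 32.9 CPM at 1 d and 243, 184 and 189.8 CPM in sham controls (log2 fold change -2.15 ± 0.27 (SE), adjusted p = 1.34e-05, edgeR).

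Antioxidant genes of the NRF2 programme were higher, 17 of 24 with 0 lower and a median log2 fold change of 1.21. At 1 d, Hmox1 was measured at 103, 78.7 and 169 CPM, and in sham controls at 12.1, 13.2 and 17.8 CPM (log2 fold change 3.02 ± 0.30 (SE), adjusted p = 1.27e-06, edgeR). Gpx1 had 635, 675 and 597 CPM in the 1 d libraries and 182, 220.5 and 199 CPM in the sham libraries (log2 fold change 1.66 ± 0.16 (SE), adjusted p = 9.29e-07, edgeR). Levels of Txnrd1 were 16.9, 22.7 and 28.7 CPM at 1 d and 4.78, 5.13 and 4.4 CPM in sham controls (log2 fold change 2.26 ± 0.26 (SE), adjusted p = 5.52e-06, edgeR). Hmox1 encodes the haem-degrading enzyme, Gpx1 a glutathione peroxidase and Txnrd1 a thioredoxin reductase. With library totals 8 passed higher and 3 lower. Subunits of the NADPH oxidase passed in both directions, with 2 of 8 higher and 3 lower (1 lower without sham library 3 or 1 d library 3), and 1 higher and 4 lower with library totals. At 1 d, Cybb was measured at 15.5, 18.7 and 23.6 CPM, and in sham controls at 2.68, 4.82 and 9.63 CPM (log2 fold change 1.75 ± 0.33 (SE), adjusted p = 0.000776, edgeR). Cybb encodes the catalytic subunit. Among 26 iron, zinc and metallothionein genes, 10 passed higher and 1 lower, the lower count being near the share over all genes. Levels of Fth1 were 2243, 3952 and 4781 CPM at 1 d and 504, 599.9 and 837 CPM in sham controls (log2 fold change 2.50 ± 0.31 (SE), adjusted p = 1.19e-05, edgeR). At 1 d, Slc40a1 was measured at 11.1, 4.6 and 5.82 CPM, and in sham controls at 46.6, 47.2 and 47.2 CPM (log2 fold change -2.71 ± 0.35 (SE), adjusted p = 1.6e-05, edgeR). Fth1 encodes the ferritin heavy chain and Slc40a1 the iron exporter ferroportin, and they changed in opposite directions. Mt1 had 92, 181 and 229 CPM in the 1 d libraries and 36.2, 53.1 and 61.4 CPM in the sham libraries (log2 fold change 1.74 ± 0.31 (SE), adjusted p = 0.00043, edgeR). Levels of Mt2 were 30.4, 75 and 129 CPM at 1 d and 4.21, 3.38 and 4.22 CPM in sham controls (log2 fold change 4.30 ± 0.71 (SE), adjusted p = 0.000209, edgeR). Both metallothioneins, which bind zinc and copper, were higher in libraries 2 and 3 than in library 1. The promoters of Mt1 (chr8:94178839-94179138, plus strand) and Mt2 (chr8:94172368-94172667, plus strand) are shown because metallothionein genes are known targets of metal response elements, here TGCNCNC on either strand (capitals, GRCm38.p6, RefSeq).
Mt1: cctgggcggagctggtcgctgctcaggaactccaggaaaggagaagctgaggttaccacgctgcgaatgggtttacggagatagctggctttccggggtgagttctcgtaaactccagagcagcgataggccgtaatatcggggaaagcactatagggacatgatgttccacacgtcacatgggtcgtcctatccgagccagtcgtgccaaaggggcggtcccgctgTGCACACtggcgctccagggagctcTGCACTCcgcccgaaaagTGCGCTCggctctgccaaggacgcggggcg
Mt2: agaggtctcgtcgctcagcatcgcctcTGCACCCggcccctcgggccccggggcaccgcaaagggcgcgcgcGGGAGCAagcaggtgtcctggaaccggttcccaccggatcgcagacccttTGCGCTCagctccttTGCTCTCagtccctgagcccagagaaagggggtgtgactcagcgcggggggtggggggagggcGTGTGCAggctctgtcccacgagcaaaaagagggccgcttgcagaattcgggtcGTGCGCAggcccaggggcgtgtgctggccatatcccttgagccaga
The window held 3 matches for Mt1 and 6 for Mt2. At least 1 match was present in 51% of all promoters and 58.2% of those of the genes tested, so its presence is common.

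Prostaglandin and leukotriene genes changed in both directions. At 1 d, Ptgs2 was measured at 27.6, 32.2 and 48.5 CPM, and in sham controls at 0.0956, 0.152 and 0.302 CPM (log2 fold change 7.53 ± 0.56 (SE), adjusted p = 8.35e-08, edgeR). Ptgs2 encodes the inducible cyclooxygenase COX-2, and no sham library exceeded 0.302 CPM. Ptges, prostaglandin E synthase, had 0.496, 5.83 and 8.82 CPM at 1 d and 0 counts in every sham library, which makes it at least 53.1-fold higher against a floor of 3 counts per library, with 1 d library 1 far below the others. Ptger4 had 7.79, 10.1 and 10.7 CPM in the 1 d libraries and 1.34, 1.03 and 1.23 CPM in the sham libraries (log2 fold change 2.98 ± 0.28 (SE), adjusted p = 5.58e-07, edgeR). Levels of Ltc4s were 60.2, 49.1 and 30.4 CPM at 1 d and 200.0, 212 and 204 CPM in sham controls (log2 fold change -2.14 ± 0.37 (SE), adjusted p = 0.000354, edgeR). At 1 d, Hpgd was measured at 64, 51 and 33.6 CPM, and in sham controls at 147, 180.1 and 199 CPM (log2 fold change -1.82 ± 0.37 (SE), adjusted p = 0.0014, edgeR). Ptger4 encodes a prostaglandin E2 receptor, Ltc4s makes leukotriene C4 and Hpgd degrades prostaglandins. Of the 19 genes of this list, 5 passed higher and 3 lower, and 5 passed lower without 1 d library 1. Of 13 genes for arginine and itaconate metabolism and alternative activation, 7 passed higher and 0 lower. Arg1 had 42.3, 5.61 and 20.6 CPM in the 1 d libraries and 0.606, 0.569 and 1.13 CPM in the sham libraries (log2 fold change 4.86 ± 0.76 (SE), adjusted p = 0.000119, edgeR). Levels of Acod1 were 24.4, 2.68 and 14.8 CPM at 1 d and 0.0319, 0.038 and 0.201 CPM in sham controls (log2 fold change 7.07 ± 0.97 (SE), adjusted p = 3.05e-05, edgeR). In both, library 1 was highest and library 2 lowest, the order seen for Cxcl2. In sham libraries 1 and 2 Acod1 lay below the floor of 3 counts, so the size of its fold change is uncertain.

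Genes known from disease-associated microglia were mostly higher, with 15 of 25 higher and 2 lower (6 lower with library totals). The 2 lower were near the share over all genes. At 1 d, Spp1 was measured at 301, 398 and 520.1 CPM, and in sham controls at 0.861, 1.25 and 4.55 CPM (log2 fold change 7.49 ± 0.65 (SE), adjusted p = 3.19e-07, edgeR). Lgals3 had 65.8, 89.5 and 204 CPM in the 1 d libraries and 1.12, 4.4 and 6.44 CPM in the sham libraries (log2 fold change 4.90 ± 0.49 (SE), adjusted p = 1.41e-06, edgeR). Levels of Ch25h were 34.3, 70.8 and 58.2 CPM at 1 d and 0.51, 0 and 0.176 CPM in sham controls (log2 fold change 7.84 ± 0.78 (SE), adjusted p = 1.14e-06, edgeR). Spp1 encodes osteopontin, Lgals3 galectin-3 and Ch25h cholesterol 25-hydroxylase. Apoe went the other way. Its levels were 221, 78.5 and 47.6 CPM at 1 d and 108, 476 and 753 CPM in sham controls, so that 1 d library 1 lay above sham library 1, with a log2 fold change of -1.95 (adjusted p = 0.0203, edgeR), a call lost without sham library 2 or 3 or without 1 d library 2 or 3. Border-associated macrophages also express Apoe. Their marker sum was 5.29, 117 and 240 CPM in sham libraries 1, 2 and 3, the same order as Apoe. In 1 d libraries 1, 2 and 3 the sum was 181, 127 and 230 CPM, which is not the order of Apoe. The part of these cells in the Apoe result was not tested. Among 25 cholesterol and lipid genes, 15 passed higher and 1, Apoe, lower, the latter near the share over all genes. With library totals 7 of them passed higher and 2 lower. At 1 d, Msr1 was measured at 272, 436 and 607 CPM, and in sham controls at 1.59, 3.27 and 9.88 CPM (log2 fold change 6.47 ± 0.55 (SE), adjusted p = 2.38e-07, edgeR). Lpl had 272, 338 and 491 CPM in the 1 d libraries and 4.49, 5.2 and 6.34 CPM in the sham libraries (log2 fold change 6.10 ± 0.62 (SE), adjusted p = 1.63e-06, edgeR). Msr1 encodes a scavenger receptor and Lpl lipoprotein lipase. Levels of Plin2 were 93.2, 147 and 271 CPM at 1 d and 18.3, 9.91 and 38.6 CPM in sham controls (log2 fold change 2.93 ± 0.48 (SE), adjusted p = 0.00018, edgeR).

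Lysosome genes were split, with 8 of 28 higher and 9 lower (5 lower without sham library 3 or 1 d library 3), and with library totals 20 passed lower. At 1 d, Cd63 was measured at 453, 814 and 895 CPM, and in sham controls at 125, 169 and 181 CPM (log2 fold change 2.19 ± 0.28 (SE), adjusted p = 1.76e-05, edgeR). Hexa had 92.1, 93.8 and 78.7 CPM in the 1 d libraries and 156, 176 and 223 CPM in the sham libraries (log2 fold change -1.07 ± 0.15 (SE), adjusted p = 3.37e-05, edgeR). Of 20 genes of TGF-beta signalling, 2 passed higher, near the share over all genes, and 5 lower, and with library totals 1 passed higher and 12 lower. Levels of Smad7 were 11.8, 9.48 and 8.74 CPM at 1 d and 22.4, 24.1 and 27.7 CPM in sham controls (log2 fold change -1.31 ± 0.17 (SE), adjusted p = 2.09e-05, edgeR). Of 23 cell death and survival genes, 6 passed higher and 5 lower (1 lower without 1 d library 2 or 3 and 3 without 1 d library 1 or sham library 2 or 3). At 1 d, Ripk3 was measured at 4.62, 4.92 and 5.86 CPM, and in sham controls at 1.21, 0.456 and 0.628 CPM (log2 fold change 2.74 ± 0.45 (SE), adjusted p = 0.000189, edgeR). Of 12 inflammasome genes, 2 passed higher and 1 lower, counts near the shares over all genes, and Nlrp3 did not pass. The higher count was 1 whichever of the 6 libraries was left out, and the lower count was 2 without 1 d library 1. Adhesion and migration genes passed higher in 13 of 29 cases and lower in 2, the lower count being near the share over all genes. Cd44 had 84.9, 99.3 and 172 CPM in the 1 d libraries and 1.94, 3.64 and 7.44 CPM in the sham libraries (log2 fold change 4.76 ± 0.44 (SE), adjusted p = 5.5e-07, edgeR). Levels of Adam8 were 63.1, 125 and 214 CPM at 1 d and 0.287, 0.645 and 1.26 CPM in sham controls (log2 fold change 7.48 ± 0.62 (SE), adjusted p = 1.95e-07, edgeR). At 1 d, Itga5 was measured at 20.9, 36.8 and 41.7 CPM, and in sham controls at 3.6, 4.29 and 6.06 CPM (log2 fold change 2.83 ± 0.32 (SE), adjusted p = 3.85e-06, edgeR). Of 28 actin cytoskeleton genes, 24 passed higher and 1 lower (0 lower without sham library 3 or 1 d library 1), and with library totals 12 passed higher and 3 lower. Capg had 41.3, 77.8 and 89.7 CPM in the 1 d libraries and 6.28, 8.5 and 4 CPM in the sham libraries (log2 fold change 3.48 ± 0.33 (SE), adjusted p = 6.03e-07, edgeR). Levels of Vim were 79.4, 108 and 150.1 CPM at 1 d and 3.19, 3.83 and 14.6 CPM in sham controls (log2 fold change 3.95 ± 0.47 (SE), adjusted p = 6.96e-06, edgeR). Of 21 complement genes, 3 passed higher and 1 lower (7 higher without sham library 3), shares near the 10.7% and 5.97% over all genes. At 1 d, C5ar1 was measured at 212, 395 and 452 CPM, and in sham controls at 34.8, 36.8 and 80.0 CPM (log2 fold change 2.80 ± 0.33 (SE), adjusted p = 6.44e-06, edgeR). C1qa, at 1384, 1743 and 1559 CPM and 1246, 1370.4 and 1765 CPM, did not pass.

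Of 12 MHC class II and costimulation genes, 1 passed higher and 1 lower, near the shares of 10.7% and 5.97% over all genes. The lower count was 5 without 1 d library 1 and 0 without 1 d library 3. Cd74 overlapped between groups, at 79.9, 71.3 and 36.7 CPM at 1 d and 36.8, 74.9 and 89.2 CPM in sham controls. Of 13 MHC class I genes, 3 passed higher and 1 lower (0 lower without sham library 3 or 1 d library 1 or 2). That lower count was near the share over all genes. Interferon-stimulated genes passed higher in 10 of 32 cases and lower in 3, and the higher count was 6 without sham library 1 or 2 or without 1 d library 3. The lower count was 1 without sham library 3 and 0 without 1 d library 2 or 3. Ifitm2 had 234, 363 and 393 CPM in the 1 d libraries and 9.88, 23.5 and 92.4 CPM in the sham libraries (log2 fold change 2.97 ± 0.51 (SE), adjusted p = 0.00031, edgeR). Levels of Bst2 were 66, 93.4 and 109.8 CPM at 1 d and 28, 24.2 and 36.7 CPM in sham controls (log2 fold change 1.60 ± 0.29 (SE), adjusted p = 0.000573, edgeR).

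Of 25 glycolysis and hypoxia genes, 15 passed higher and 2 lower, with a median log2 fold change of 1.88. The median was 1.62 with genes at 0 in sham set to the floor. The lower count was near the share over all genes. It was 0 without sham library 2 or 1 d library 2 or 3, and 1 when any other library was left out. With library totals 12 passed higher and 4 lower, and the median was 1.08. At 1 d, Pkm was measured at 168, 329 and 395 CPM, and in sham controls at 20.1, 22.1 and 30.4 CPM (log2 fold change 3.62 ± 0.33 (SE), adjusted p = 5.5e-07, edgeR). Ldha had 195, 312 and 331 CPM in the 1 d libraries and 38.7, 33.9 and 50.5 CPM in the sham libraries (log2 fold change 2.77 ± 0.24 (SE), adjusted p = 3.19e-07, edgeR). Levels of Pgk1 were 85.1, 149 and 167 CPM at 1 d and 12.1, 13.6 and 15.9 CPM in sham controls (log2 fold change 3.27 ± 0.29 (SE), adjusted p = 3.19e-07, edgeR). All 3 encode glycolytic enzymes, and in each the lowest value at 1 d was in library 1. Hk2, a hexokinase, was not higher, at 34.3, 27.5 and 25.6 CPM and 33.9, 37.6 and 47 CPM. Of 38 cell cycle genes, 24 passed higher and 1 lower, with a median of 1.99. At 1 d, Mcm2 was measured at 14.8, 17.9 and 13 CPM, and in sham controls at 0.733, 0.38 and 0.754 CPM (log2 fold change 4.59 ± 0.37 (SE), adjusted p = 1.52e-07, edgeR). Mcm5 had 12.5, 11.3 and 9.91 CPM in the 1 d libraries and 0.765, 0.494 and 1.53 CPM in the sham libraries (log2 fold change 3.57 ± 0.47 (SE), adjusted p = 2.22e-05, edgeR). Levels of Pcna were 119.7, 159 and 136 CPM at 1 d and 32.6, 30.2 and 39.8 CPM in sham controls (log2 fold change 2.02 ± 0.16 (SE), adjusted p = 1.2e-07, edgeR). These 3 genes encode parts of the DNA replication machinery, and they were similar in the 3 libraries at 1 d. At 1 d, Cdkn1a was measured at 542, 747 and 979 CPM, and in sham controls at 37.8, 33.3 and 45.4 CPM (log2 fold change 4.28 ± 0.40 (SE), adjusted p = 6.03e-07, edgeR). Cdkn1a encodes the cell cycle inhibitor p21. Mki67 had 17.4, 8.36 and 4.22 CPM in the 1 d libraries and 1.85, 0.835 and 4.27 CPM in the sham libraries (log2 fold change 2.09 ± 0.53 (SE), adjusted p = 0.00852, edgeR). The proliferation marker Mki67 was highest in library 1, overlapped between groups through library 3 and was lost as a call without 1 d library 1. Of the genes of mitosis in the list, Cdk1, Aurkb and Bub1 passed higher, while Ccnb1, Ccnb2, Cdc20 and Plk1 did not pass. The promoter of Mcm5 (chr8:75109259-75109558, plus strand, GRCm38.p6, RefSeq) is shown because it holds a match to 1 of the E2F motifs searched, TTTCCCGC or TTTGGCGC on either strand (capitals).
Mcm5: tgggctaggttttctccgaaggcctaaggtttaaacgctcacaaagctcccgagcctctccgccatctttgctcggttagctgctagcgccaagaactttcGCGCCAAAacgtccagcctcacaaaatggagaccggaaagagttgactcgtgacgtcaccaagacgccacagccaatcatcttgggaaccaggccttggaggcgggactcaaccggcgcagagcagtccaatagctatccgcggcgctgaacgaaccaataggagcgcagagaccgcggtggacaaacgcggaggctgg
These motifs were in 19.4% of 36 cell cycle promoters, 5.38% of promoters of genes higher past the fold bar, 2.49% of promoters of the genes tested and 1.56% of all promoters.

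Genes of the unfolded protein response and chaperones passed higher in 14 of 22 cases and lower in 1 (0 lower without sham library 2 or 3 or 1 d library 1 or 3), and with library totals in 9 and 4. Levels of Hspa5 were 1020.3, 1567 and 1556 CPM at 1 d and 293, 279.5 and 448 CPM in sham controls (log2 fold change 2.02 ± 0.25 (SE), adjusted p = 9.94e-06, edgeR). At 1 d, Manf was measured at 146, 224 and 232 CPM, and in sham controls at 54.5, 58.2 and 65.2 CPM (log2 fold change 1.76 ± 0.24 (SE), adjusted p = 2.78e-05, edgeR). Ddit3, which encodes CHOP, had 6.34, 5.72 and 7.57 CPM and 14.3, 14.1 and 14.1 CPM and did not pass. Genes for protein synthesis, energy and protein breakdown were higher almost throughout. Of 77 cytosolic ribosomal proteins 76 passed higher, of 79 oxidative phosphorylation subunits 68, and of 34 proteasome subunits 30, with 0 lower in each and median log2 fold changes of 1.46, 1.28 and 1.26. With library totals these counts were 57, 31 and 14, still with 0 lower, and the medians were 0.70, 0.52 and 0.48. Rps2 had 785, 1050.0 and 1168 CPM in the 1 d libraries and 139, 183 and 171 CPM in the sham libraries (log2 fold change 2.61 ± 0.21 (SE), adjusted p = 1.84e-07, edgeR). Levels of Atp5g1 were 280.2, 384 and 451 CPM at 1 d and 71.3, 78.3 and 65.5 CPM in sham controls (log2 fold change 2.37 ± 0.26 (SE), adjusted p = 3.59e-06, edgeR). At 1 d, Psmb5 was measured at 62.5, 86.1 and 75.8 CPM, and in sham controls at 22.4, 22.5 and 21.6 CPM (log2 fold change 1.75 ± 0.17 (SE), adjusted p = 6.83e-07, edgeR). Ribosomal protein genes have many near-identical pseudogene copies, which makes the split of reads among them uncertain.

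These families consist mostly of short transcripts, and fold changes varied with transcript length. Among protein-coding genes with a mean of at least 1 CPM, in 5 groups of equal size by length, the median log2 fold change was 0.48 in the group of the shortest transcripts and -0.13 in that of the longest, and 33.7% and 13.4% passed higher. Within the shortest group, the medians of ribosomal protein, oxidative phosphorylation and proteasome genes were 1.46, 1.30 and 1.44, against 0.44, 0.45 and 0.47 for the other genes of that group. The part of length in these results was otherwise not tested. By gene type, 6.44% of pseudogenes were higher past the fold bar and 0.849% lower, while 0.981% of long noncoding RNAs were higher and 3.43% lower.

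**Figure D3:**
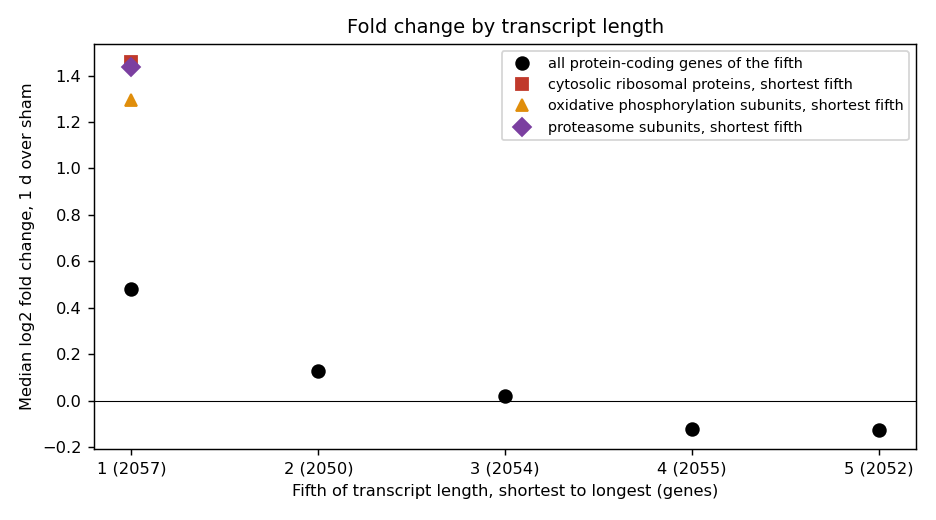
Median log2 fold change at 1 d over sham (y axis) of protein-coding genes in 5 groups by transcript length (x axis, with the number of genes), with the members of 3 families that fall in the shortest group as coloured points. The medians fall from 0.48 to -0.13 across the groups, and the 3 families lie above 1.2.

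**Figure D4:**
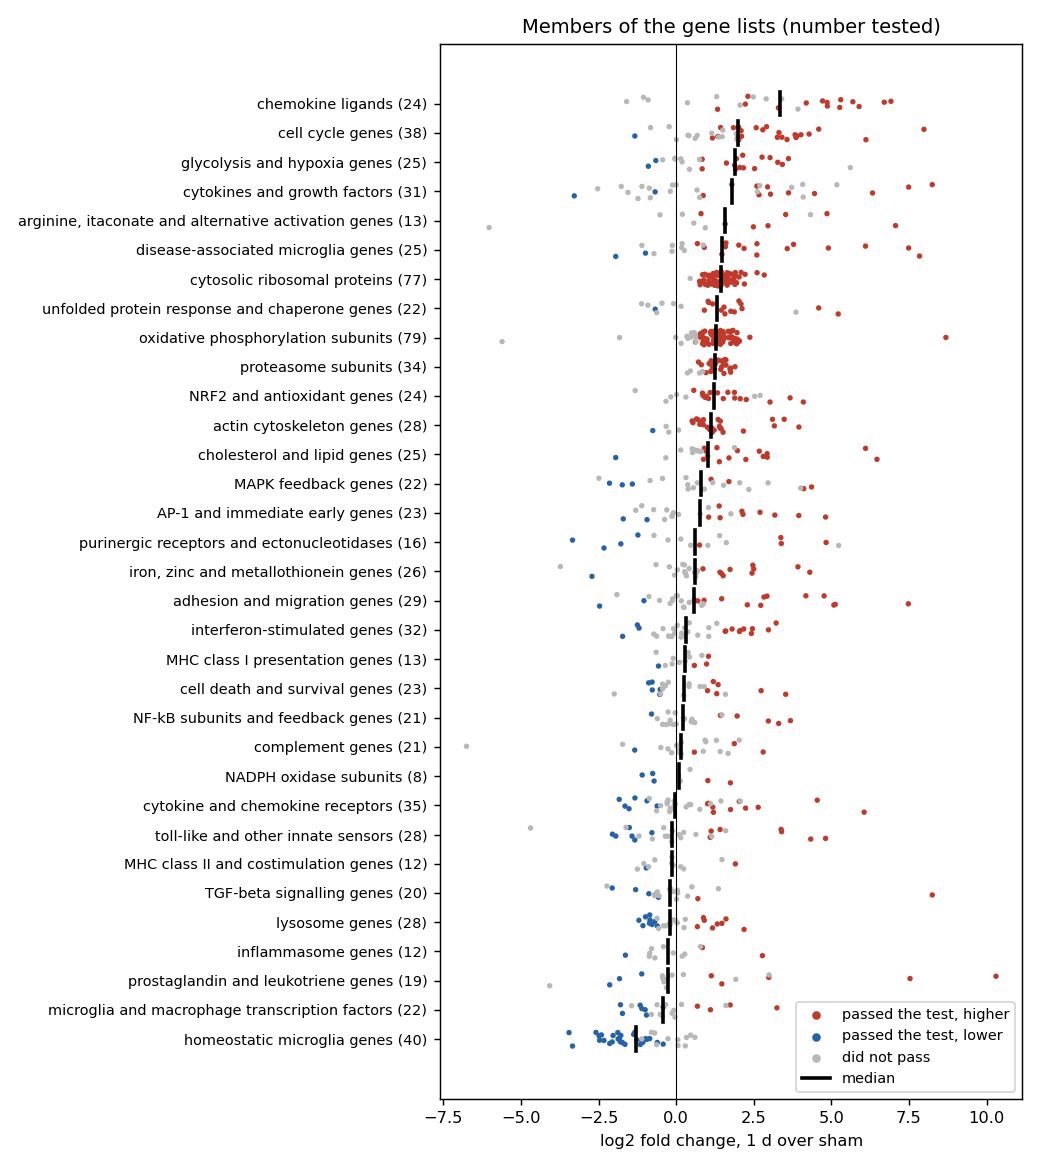
Log2 fold changes (x axis) of the members of 33 lists, ordered by their median (black bar), with red and blue points for members that passed higher and lower. Chemokine ligands are at the top and homeostatic microglia genes at the bottom.

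Markers of other cell types were measured in the same libraries. The sum of 12 microglia markers was 5464 to 6881 CPM at 1 d and 12470 to 14730 CPM in sham controls, and 1530 to 2139 CPM in the infiltrating myeloid cells of wild-type mice at 1 d. Neutrophil markers summed to 897, 179 and 582 CPM in the 1 d libraries and to 160, 252 and 861 CPM in the sham libraries, against 3694 to 13610 CPM in infiltrating cells. S100a8 was at 288, 75.6 and 274 CPM and 0.829, 33.8 and 249 CPM and did not pass. Of 14 neutrophil markers, 1, Il1r2, passed higher and 1, Csf3r, lower, counts near the shares over all genes. Csf3r had 158, 160.1 and 187 CPM in the sham libraries and 68.7, 50.55 and 57.1 CPM in the 1 d libraries. Its mean in infiltrating cells was 195 CPM. Csf3r made up nearly all of the sum in sham library 1, where S100a8 and S100a9 were at 0.829 and 0.765 CPM. Monocyte markers summed to 180, 152 and 89.4 CPM in the 1 d libraries and to 8.86, 17.6 and 81.8 CPM in the sham libraries. Of 11 markers 1, Fn1, passed higher, near the share over all genes. Fn1 made up most of the sum in 1 d libraries 2 and 3, and without Fn1 the sums of the groups overlapped. Fn1 had 81.5, 142 and 70.3 CPM in the 1 d libraries and 0.637, 1.29 and 4.35 CPM in the sham libraries (log2 fold change 5.52 ± 0.64 (SE), adjusted p = 5.54e-06, edgeR). Ccr2, which marks monocytes, overlapped between groups, at 27.8, 1.99 and 5.27 CPM and 4.05, 3.83 and 8.27 CPM, and was highest in 1 d library 1, as were Cxcl2, Arg1 and Il1b. Their means in infiltrating cells were 352, 2955, 1981 and 1910 CPM. Microglia were sorted as CD45low and infiltrating cells as CD45hi. The part of infiltrating cells in the values of library 1 or of the other libraries was not tested. In the fit without library 1, 14 chemokine ligands passed higher and 28 homeostatic genes lower. That fit cannot decide the part of infiltrating cells, because 1 d library 3, with a neutrophil marker sum of 582 CPM, stayed in it.

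None of the 9 border-associated macrophage, 10 lymphocyte, 9 neuron and 9 endothelial or pericyte markers passed. Lymphocyte markers summed to at most 1.97 CPM in the microglia libraries, and the endothelial marker Cldn5 was listed at 0 in every 1 d library. Of 9 oligodendrocyte markers 3 passed higher, among them Mbp, and of 8 astrocyte markers 1, Gfap, passed higher and 2 lower. Of 8 red blood cell and platelet markers 1, Ppbp, passed higher and 1, Gp9, lower, counts near the shares over all genes.

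**Figure D5:**
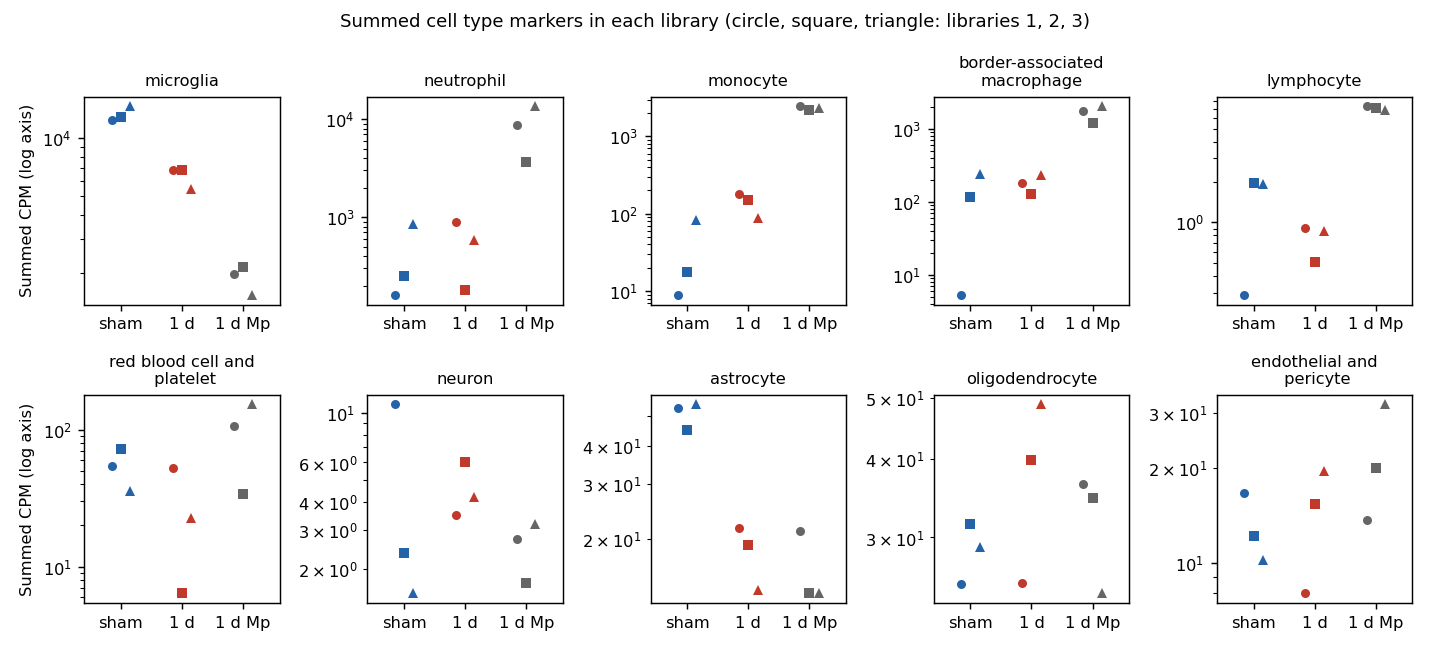
Summed TMM-scaled CPM (y axes, log scale) of the marker lists of 10 cell types in the 3 sham and 3 injured microglia libraries and in the 3 libraries of infiltrating myeloid cells (Mp) of wild-type mice at 1 d. Neutrophil and border-associated macrophage sums of the microglia groups overlap and lie below those of the Mp libraries.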

How the data were processed

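RNA was measured in sorted microglia and infiltrating myeloid cells in 21 libraries of 7 groups, of which 6 libraries are compared here. Reads were quantified by the authors with salmon (nf-core/rnaseq, GRCm38), and the deposited table holds expected counts, with gene length divided out within a library and no normalization between libraries; the annotation release was not given in the sources used here. The submitters' processing notes name R 4.2.0 and DESeq2 1.36.0. The sequencing kit is not stated to keep strand, so reads of genes whose spans overlap on opposite strands are uncertain, among those named Evi2b, Tspo, Irf2bp2, Sult1a1, Gm3488, Gfap, Mbp, Maf, Il16, Ptger4 and Ddit3, whose partners reached over 10% of their mean CPM.

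Expected counts were rounded to whole numbers and tested in R 4.3.3 with edgeR 4.0.16 (TMM, glmQLFit, glmQLFTest, Benjamini-Hochberg adjustment) in a single model of the 21 libraries with a term for every group, for genes with at least 5 counts in all. The common biological coefficient of variation was 0.643. Standard errors were derived from the F statistics. GENCODE M21 gave symbols for 45143 of 45706 identifiers. A gene passed at an adjusted p under 0.05; the fold bar was an absolute log2 fold change of 1.5. CPM are TMM-scaled. Replicates are pools of separate animals, and each pair differed by more than counting noise (chi-square over degrees of freedom from 26.4 up). That comparison took the length-scaled counts as if they were read counts.

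Named genes were, per direction, the 10 with the smallest adjusted p and the 5 with the largest fold change among protein-coding genes past the fold bar with separate groups (the latter at a mean of at least 10 CPM), key genes of 43 lists, and up to 4 passing members per list and direction with the smallest adjusted p. Other genes are named for their values. The comparison and lists were chosen with earlier results of these data known. Promoters were matched by symbol. The method was tested on simulated data. A first version of that test failed because too few changed genes were recovered, and its criteria were then revised to bear on fold estimates, signs and false calls. Many changed genes were missed, so a gene that did not pass is not shown to be unchanged.

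The alternatives were DESeq2 1.42.0, DESeq2 size factors, upper-quartile factors, removal of ribosomal RNA genes, filterByExpr or no filter, fits of the 6 compared or the 15 microglia libraries, a replicate block, a fold bar of 1 and leaving out each library. Library totals without composition factors were added after seeing the data.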

Additional observations from a re-analysis of the deposited data

How the results depend on the processing

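Counts of genes past the test were 1979 to 2507 higher and 731 to 1573 lower when single libraries were left out, and with the fold bar 979 to 1210 higher and 273 to 885 lower. Lower genes numbered 2673 with DESeq2's Wald test and 2390 with the 15 microglia libraries, and past the fold bar 1195 and 984. With DESeq2, 51.4% of genes past the fold bar were higher, against 66.9% in edgeR. With library totals, 976 genes were higher and 4072 lower, and past the fold bar 454 and 2026, of which 18.3% were higher. A fold bar of 1 gave 1920 higher and 1003 lower. The other alternatives stayed within 1.5 times of these counts. Of the named genes that passed, 6 changed sign with library totals, to -0.247 (Ptprc), -0.156 (Itgam), -0.076 (Hif1a), -0.186 (Psmb8), -0.007 (P2rx4) and -0.074 (Itgb1). No named gene that passed did so under any other alternative. Over 252 named genes and all alternatives, 169 calls were lost without a change of sign and 18 gained. The 6 calls that changed sign were lost as well. The groups share replicate numbers, but the deviations of same-numbered libraries correlated at 0.113, -0.0156 and 0.105, so the numbers were not taken as pairs. With the replicate block, 2542 genes were higher and 1469 lower, and past the fold bar 1150 and 615. Except for the scaling by totals and the left-out libraries, whose construction differs, the cause of these differences was not tested. The depth does not resolve genes near 0.1 CPM.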
